A study of Mus musculus with 8 samples.

Results

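The cadherins and protocadherins of the embryonic mouse hypothalamus were taken as every gene symbol made of Cdh and a number, other than the endothelial Cdh5, together with every symbol that starts with Pcdh. They came to 57 of 23440 symbols in the E12 tables and to 95 of 24002 symbols in the E17.5 tables, with 56 in both. The E17.5 members were 5 type I classical cadherins, 12 type II classical cadherins, 5 other Cdh genes, 12 non-clustered protocadherins and 61 clustered protocadherin symbols. Of these 61, 17 were in the alpha, 22 in the beta and 22 in the gamma cluster. The alpha count takes in Pcdha4-g, Pcdha6-g and Pcdha7-g, which were listed as symbols of their own. At E12 a group of 36 alpha and gamma protocadherin symbols shared a single joined row, so that 23 clustered members remained there. The symbol rule used no measured value.

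RNA of hypothalamic tissue was sequenced from Foxd1-mutant embryos and from wild-type embryos, with 2 libraries of each genotype at E17.5 and, before that, a single library of each at E12.0 and another at E12.5. Foxd1 encodes a forkhead transcription factor, and the series asks what its loss does to neuronal subtypes of the anterior hypothalamus. The labels describe the mutants as Foxd1-null embryos but give neither the allele nor the strain, and their words for the control embryos could cover both genotypes, so each library went by its own sample characteristics. Each library was made from pooled RNA, and nothing says that the pools were separate litters, so p-values measure the spread between these libraries.

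Cadherins are calcium-dependent adhesion proteins. Classical cadherins bind like molecules on neighbouring cells and are tied to the actin cytoskeleton through catenins, and in the developing brain their combinations mark nuclei, divisions and fibre tracts. Non-clustered delta protocadherins are weaker adhesion molecules that act on cell movement, axon growth and synapses. Clustered protocadherins lie in tandem arrays on chromosome 18, where each neuron picks a set of first exons, and the alpha and gamma first exons are spliced to constant exons shared within their cluster.

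Foxd1 itself was listed at 2.77 FPKM (fragments scaled by transcript length and library depth) in the mutant against 25.0 FPKM in the wild-type library at E12.0, and at 2.497 against 30.3 FPKM in the E12.5 pair. It was lower still at E17.5, where it stood at 0.396 and 0.230 FPKM in mutant libraries against 3.90 and 1.96 FPKM in wild-type libraries. Estimated depth was 40.8 and 30.3 M fragments in mutant and 34.6 and 43.4 M in wild-type libraries at E17.5, while at E12 the estimate was uncertain. The second E17.5 mutant library stood apart by forebrain markers, since 12 telencephalon genes summed to 57.3 and 122 FPKM in the mutant libraries against 55.8 and 55.0 FPKM in wild-type libraries. Neuron markers summed to 3285 and 3099 FPKM in mutant against 3252 and 3397 FPKM in wild-type libraries at E17.5, and 12 hypothalamus markers summed to 76.0 and 64.1 against 94.6 and 85.2 FPKM. Of those 12, 11 had a log2 change below 0 and 6 were lower at an unadjusted p under 0.05, while 0 passed the adjusted threshold (limma). In tissue libraries such as these, fewer cells of a type and less RNA per cell cannot be told apart.

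No cadherin or protocadherin passed the adjusted threshold of 0.05 between Foxd1-mutant and wild-type tissue at any stage. At E17.5, 83 of the 95 members had a mean of at least 1 FPKM and were tested with limma on log2(FPKM + 1), and 0 passed, beside 1 of 13235 genes in all (0.00756%). At an unadjusted p under 0.05 there were 3 members, beside a background of 5.7%. Cdh4 and Pcdh8 were lower in mutant tissue (background 3.52%) and Pcdha6 was higher (background 2.18%). The 3 became 15 without the first mutant library, where 28.4% of all genes reached that p, and 0 without the first wild-type library, where 2.59% did. Both mutant libraries lay below both wild-type libraries for 11 of 83 members, beside 22.2% of all genes, and above them for 17, beside 20.9%, so neither share exceeded its background. The largest changes of any tested member were -0.23 and 0.34 on the log2(FPKM + 1) scale, which understates the change of low genes, and the median was 0.02 over the 83 members beside 0.00 over all genes.

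Of the type I cadherins, Cdh2 and Cdh4 made up nearly all of the signal in the hypothalamus. Cdh2 (N-cadherin), the classical cadherin of neural progenitors and neurons, was the most abundant cadherin at E17.5. It stood at 92.5 and 104 FPKM in mutant libraries against 91.9 and 93.7 FPKM in wild-type libraries. The groups overlapped, and the log2 change was 0.08 (SE 0.07, adjusted p = 0.720, limma).

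Cdh4 (R-cadherin), a classical cadherin of brain nuclei and fibre tracts, gave the lowest unadjusted p of any member at E17.5. Its FPKM was 30.1 and 29.9 in mutant libraries against 35.4 and 34.8 in wild-type libraries. The libraries of each genotype agreed closely and the groups did not overlap. The log2 change was -0.22 (SE 0.05, unadjusted p = 0.00446), but with 13235 genes tested the adjusted p was 0.689. Without the second mutant library it was -0.22 with an adjusted p of 0.913, so the size of the Cdh4 difference was the same without the library high in telencephalon markers.

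The other type I genes were scarce. Cdh1 (E-cadherin), the cadherin of epithelia, was listed at 3.95 and 2.41 FPKM in mutant libraries against 3.27 and 1.99 FPKM in wild-type libraries at E17.5, and at 0.42 FPKM or less in every E12 library. Surface and oral epithelium markers summed to 7.91 and 12.48 FPKM in the same mutant libraries against 10.1 and 5.85 FPKM in wild-type libraries, and their part in the Cdh1 values was not tested. Cdh15 (M-cadherin), known from skeletal muscle, had 0.964 and 0.887 FPKM in mutant against 1.03 and 0.856 FPKM in wild-type libraries, and Cdh3 stayed under 1 FPKM in every library.

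**Figure D1:**
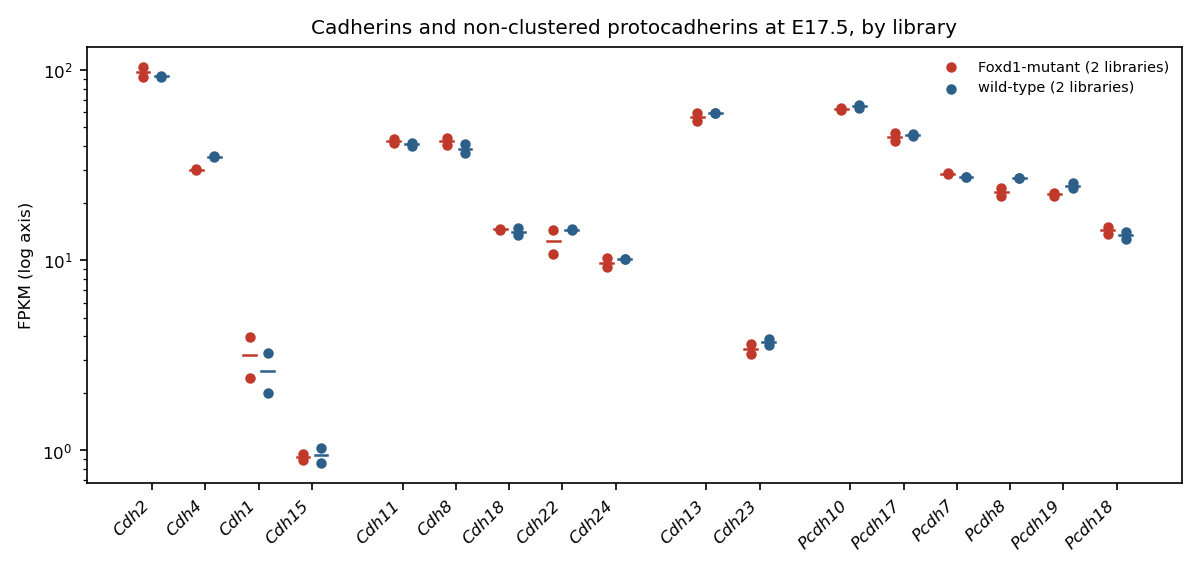
FPKM on a log axis of 17 cadherins and non-clustered protocadherins at E17.5, with a point per library, a short line at the mean, Foxd1-mutant libraries left of wild-type libraries in each pair. Genotypes sit side by side over a range from under 1 FPKM for Cdh15 to about 100 FPKM for Cdh2, and Cdh4, Pcdh8 and Pcdh19 are among those whose mutant points both lie below the wild-type points.

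Type II cadherins, which separate neuron pools and nuclei, were led at E17.5 by Cdh11 and Cdh8. Cdh11, also strong in mesenchyme, had 41.4 and 43.2 FPKM in mutant libraries against 41.6 and 40.0 FPKM in wild-type libraries. Cdh8, a cadherin of neural circuits, had 40.5 and 44.0 FPKM in mutant libraries against 36.6 and 40.6 FPKM in wild-type libraries. Both groups overlapped. Of 12 type II genes 11 were tested at E17.5, with 0 at an unadjusted p under 0.05 (limma), log2 changes between -0.20 and 0.13 and a median of 0.03.

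The lowest type II change was that of Cdh22, a cadherin of the brain and pituitary. It had 14.4 and 10.8 FPKM in mutant libraries against 14.5 and 14.5 FPKM in wild-type libraries. Its difference came from the second mutant library alone, the one with the high telencephalon sum, and the log2 change of -0.20 (SE 0.13) had an adjusted p of 0.689. Cdh24 had 10.3 and 9.18 FPKM in mutant against 10.2 and 10.2 FPKM in wild-type libraries, and Cdh18 had 14.6 and 14.5 against 13.6 and 14.7 FPKM. Cdh19, known from neural crest and glia of nerves, stayed under 1 FPKM in every library.

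Of the 5 other Cdh genes, Cdh13 and Cdh23 passed the filter on low values at E17.5. Cdh13 (T-cadherin), which is anchored to the membrane by a lipid and lacks a cytoplasmic part, had 59.6 and 54.1 FPKM in mutant libraries against 59.4 and 59.5 FPKM in wild-type libraries. Cdh23, a long cadherin of hair cell tip links, had 3.23 and 3.62 against 3.57 and 3.87 FPKM. The log2 changes were -0.07 (SE 0.06) and -0.09 (SE 0.09). Cdh17, a cadherin of the intestine, and Cdh26 were at most 0.500 FPKM in every library, and Cdh16, the kidney cadherin, was listed at 0 in all 8.

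The delta-2 protocadherins Pcdh8, Pcdh10, Pcdh17, Pcdh18 and Pcdh19 were listed lower in mutant than in wild-type tissue at both early stages in all 5 cases, beside 21.8% of all genes. This was not particular to delta-2, since all 4 delta-1 genes had E12 log2 changes below 0, beside 47.8% of all genes. Of these 4, Pcdh7 alone was higher in the mutant at E12.0, at 5.06 against 4.92 FPKM. With small RNA genes left out and libraries rescaled, all 4 were lower at both stages, beside 27.0% of all genes. At E17.5 Pcdh8 and Pcdh19 lay lower in both mutant libraries, Pcdh10 and Pcdh17 had changes of -0.04 and -0.03 on the log2 scale, and Pcdh18 was on the higher side at 0.08. None of these differences passed the adjusted threshold. For the 5 delta-2 genes, but not for delta-1, the 250 bases before each RefSeq transcription start are shown (build GRCm38.p6, read on the strand of the gene). The delta-2 genes were picked because all 5 lay on the same side at E12. All 5 matched a RefSeq promoter entry, at chr14:79771313-79771562 on the minus strand, chr3:45378148-45378397 on the plus strand, chr14:84443313-84443562 on the plus strand, chr3:49757317-49757566 on the minus strand and chrX:133688994-133689243 on the minus strand. Capitals mark a CCAAT box (CCAAT, or ATTGG on the other strand) and a forkhead core (TGTTTA, or TAAACA on the other strand).
Pcdh8: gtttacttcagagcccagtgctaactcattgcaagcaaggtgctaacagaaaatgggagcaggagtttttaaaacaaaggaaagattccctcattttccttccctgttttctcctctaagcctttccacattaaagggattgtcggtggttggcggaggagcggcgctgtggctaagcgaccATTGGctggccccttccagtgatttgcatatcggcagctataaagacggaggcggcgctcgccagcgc
Pcdh10: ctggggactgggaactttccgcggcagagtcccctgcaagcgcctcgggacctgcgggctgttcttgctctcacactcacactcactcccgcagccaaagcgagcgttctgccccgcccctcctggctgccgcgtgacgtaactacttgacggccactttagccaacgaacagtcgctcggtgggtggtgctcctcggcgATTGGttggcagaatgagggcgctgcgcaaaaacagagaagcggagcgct
Pcdh17: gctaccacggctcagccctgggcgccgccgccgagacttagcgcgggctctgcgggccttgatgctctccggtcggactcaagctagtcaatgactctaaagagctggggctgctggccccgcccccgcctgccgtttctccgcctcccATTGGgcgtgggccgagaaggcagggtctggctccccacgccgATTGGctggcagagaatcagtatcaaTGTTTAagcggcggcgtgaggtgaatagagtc
Pcdh18: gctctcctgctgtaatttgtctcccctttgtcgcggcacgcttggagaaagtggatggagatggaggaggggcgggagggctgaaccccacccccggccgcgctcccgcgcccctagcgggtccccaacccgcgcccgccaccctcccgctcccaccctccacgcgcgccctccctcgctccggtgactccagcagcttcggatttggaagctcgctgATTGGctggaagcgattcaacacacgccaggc
Pcdh19: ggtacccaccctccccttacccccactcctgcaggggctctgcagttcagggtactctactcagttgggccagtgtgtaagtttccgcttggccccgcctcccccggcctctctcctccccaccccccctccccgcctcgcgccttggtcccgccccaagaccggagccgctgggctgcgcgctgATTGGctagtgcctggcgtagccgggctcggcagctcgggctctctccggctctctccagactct

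A CCAAT box was found in all 5 windows, and in 33.85% of 32851 promoter windows of the same length, while Pcdh17 held 2. The forkhead core was found in the Pcdh17 window alone of the 5, and in 12.03% of all windows. Between 51.2% and 69.2% of the bases of the 5 windows were G or C. A match describes the letters of the window and not a bound site, and a window without one says only that these letters are not in it.

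Pcdh8 (also called arcadlin), known from rat neurons to draw N-cadherin off the synaptic membrane, was the delta-2 member with the lowest unadjusted p at E17.5. It had 24.1 and 21.8 FPKM in mutant libraries against 26.9 and 27.1 FPKM in wild-type libraries. Both mutant libraries lay below both wild-type libraries, with a log2 change of -0.23 (SE 0.06, unadjusted p = 0.0127, adjusted p = 0.689, limma). Without the second mutant library the change was -0.16, and without the first it was -0.30. With the largest transcript row of each library standing for the gene in place of the sum it was 0.00 (-0.0018). That row was not the same transcript in every library.

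Pcdh19, an X-linked protocadherin whose human counterpart is mutated in an epilepsy of girls, had 22.7 and 21.9 FPKM in mutant libraries against 23.9 and 25.5 FPKM in wild-type libraries at E17.5. These groups did not overlap either, and the log2 change was -0.14 (SE 0.06, unadjusted p = 0.0535). At E12.0 Pcdh19 had 4.19 FPKM in the mutant against 6.65 FPKM in the wild-type library, and at E12.5 it had 5.48 against 7.26 FPKM. The E12 change was -0.46 (SE 0.15, unadjusted p = 0.0288, adjusted p = 0.976, limma with stage as a block). Over all 8 libraries the mean change was -0.30 (unadjusted p = 0.00811, adjusted p = 0.749), with the mutant lower in every comparison within a stage.

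Pcdh10 and Pcdh17, which recruit actin regulators at axons and synapses, were the most abundant non-clustered members at E17.5. Pcdh10 had 63.5 and 62.0 FPKM in mutant libraries against 63.5 and 65.8 FPKM in wild-type libraries, and Pcdh17 had 47.0 and 42.3 against 44.9 and 46.4 FPKM. Pcdh18 had 14.97 and 13.8 FPKM in mutant libraries against 14.1 and 13.0 FPKM in wild-type libraries, with log2 changes of -0.04, -0.03 and 0.08 for the 3 genes. Their genotype groups at E17.5 touched or overlapped.

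Among the delta-1 protocadherins, which carry a phosphatase-binding motif, Pcdh7 had 28.3 and 28.7 FPKM in mutant libraries against 27.4 and 27.5 FPKM in wild-type libraries. Pcdh9 had 20.8 and 22.2 against 21.0 and 22.6 FPKM, Pcdh11x had 21.96 and 25.2 against 21.2 and 23.4 FPKM, and Pcdh1 had 16.5 and 15.8 against 16.8 and 17.2 FPKM. Pcdh7 was higher and Pcdh1 lower without overlap, by 0.05 and -0.07 on the log2 scale. Of all 12 non-clustered genes, which were all tested at E17.5, 1 was at an unadjusted p under 0.05, beside 5.7% of all genes. Without overlap 3 lay below and 3 above, close to the 22.2% and 20.9% of all genes, and the median change was 0.01. Pcdh12, a protocadherin of endothelium, had 1.93 and 2.07 FPKM in mutant against 1.92 and 1.91 FPKM in wild-type libraries, where 10 endothelial markers summed to 142 and 126 against 130 and 117 FPKM.

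At E12, where 34 of 57 members had a mean of at least 1 FPKM, 0 passed the adjusted threshold (limma), beside 4 of 11952 genes (0.0335%). There were 2 members at an unadjusted p under 0.05, Pcdh19 and Pcdhb17, both lower in mutant tissue, beside a background of 1.41% in either direction and 0.803% lower. With 1 library per genotype and stage, the test asks only how well the genotype difference at E12.0 matched that at E12.5. The mutant lay below the wild-type at both early stages for 16 of 34 members, beside 21.8% of all genes, and above it for 3, beside 25.9%. Members below at both stages were Cdh2 and Cdh4 of type I, Cdh8 and Cdh10 of type II, 4 beta protocadherins and 8 of 11 non-clustered protocadherins. Those above were Cdh11, Pcdhb10 and Pcdhb21.

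The 5 delta-2 genes at E12 showed small differences at each stage. Pcdh8 had 18.4 FPKM in the mutant against 18.6 FPKM in the wild-type library at E12.0, and 23.97 against 29.5 FPKM at E12.5. Pcdh10 had 11.4 against 13.7 FPKM and then 25.0 against 26.2 FPKM. Pcdh17 had 4.25 against 5.30 FPKM and then 6.86 against 7.40 FPKM. Pcdh18, with 5.17 against 5.49 FPKM and then 7.16 against 7.99 FPKM, also lay lower at both stages, and the log2 changes of the 5 ran from -0.46 to -0.11 with a median of -0.16. Of all genes 47.8% had a change below 0 at E12. With small RNA genes left out and libraries rescaled, the 5 were again lower at both stages, and the count of non-clustered members lower at both was 10 of the 12 that then passed the filter, beside 27.0% of all genes.

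Marker sums moved at these stages as well. At E12.0 neuron markers summed to 1205 FPKM in the mutant against 1186 FPKM in the wild-type library, and at E12.5 to 1881 against 2079 FPKM. On the log2 scale 8 of 9 neuron markers were below 0 at E12 and 8 of 9 progenitor and proliferation markers above 0. The progenitor sum was 677 against 607 FPKM at E12.0 and 705 against 648 FPKM at E12.5. The 12 hypothalamus markers summed to 151 against 239 FPKM at E12.0 and to 227 against 208 FPKM at E12.5. Thalamus and prethalamus markers summed lower at both stages, to 134 against 165 FPKM and 128 against 166 FPKM, with 8 of 8 tested markers below 0. So did telencephalon markers, at 141 against 162 FPKM and 139.9 against 148 FPKM, with 10 of 11 below 0. The part of these lists in the lower protocadherin values was not tested.

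A difference of at least 2-fold at E12.0 occurred for 1 member, Pcdh1, with 2.80 FPKM in the mutant against 6.12 FPKM in the wild-type library, beside 3.23% of all genes at least 2-fold lower there. At E12.5 the same gene had 5.20 against 5.33 FPKM, so the 2 stages differed, and the E12 change of -0.47 (SE 0.25) had an adjusted p of 0.976. No member was 2-fold higher at E12.0 (background 1.7%), and none was 2-fold lower or higher at E12.5, beside 0.736% and 0.226%.

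**Figure D2:**
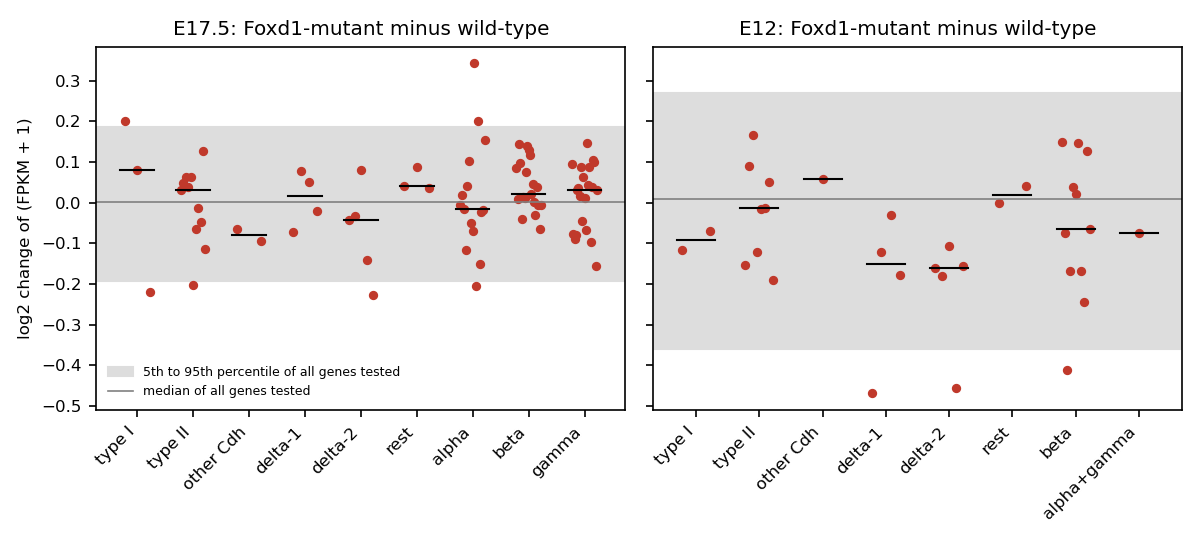
Log2 change of FPKM + 1, Foxd1-mutant minus wild-type, of each tested member by group at E17.5 (left) and E12 (right), with a black line at the group median, the grey band from the 5th to the 95th percentile of all genes tested and a grey line at their median. At E17.5 the group medians lie near 0, between -0.08 and 0.08, while at E12 all 5 delta-2 and all 4 delta-1 genes are below 0.

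The genotype difference at E17.5 was also set against that at E12 in 1 fit of all 8 libraries. Of 47 members tested 0 passed the adjusted threshold (limma), beside 4 of 12519 genes (0.032%), and 4 were at an unadjusted p under 0.05 beside 3.95%. These were Pcdhb17 (0.42), Cdh18 (0.33), Cdh8 (0.32) and Pcdh19 (0.31). In each the signed change, mutant minus wild-type, was higher at E17.5 than at E12, as in 1.74% of all genes at that p. Pcdh19 went from -0.46 at E12 to -0.14 at E17.5, Pcdhb17 from -0.41 to 0.01 and Cdh8 from -0.19 to 0.13. Cdh18 had -0.37 at E12.0 and -0.225 at E12.5 against 0.04 at E17.5. In size, all 4 differences were smaller at E17.5. The 4 became 1 without the second mutant library or without either wild-type library of E17.5. Cdh8 had 11.3 against 13.7 FPKM at E12.0 and 18.2 against 19.9 FPKM at E12.5 in mutant against wild-type tissue, which was the opposite side from E17.5. Cdh18 was near the filter at E12, with 0.296 against 0.673 FPKM at E12.0 and 0.881 against 1.198 FPKM at E12.5. The adjusted p of all 4 was 0.749. The values moved with the pseudocount, where 0.1 gave 0.73 for Cdh18, and 5 gave 0.12 for Cdh18, 0.24 for Pcdhb17 and 0.16 for Pcdh19. For the mean difference over all stages 0 of 47 members passed, beside 0% of 12519 genes, and 3 were at an unadjusted p under 0.05 (Cdh4, Pcdh8 and Pcdh19, all lower in mutant tissue) beside 5.55% in either direction and 3.11% lower.

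No clustered protocadherin passed the adjusted threshold at E17.5, and the sums of the 3 clusters lay side by side in the genotypes. Of 61 clustered symbols 55 were tested, of which 5 lay below the wild-type in both mutant libraries and 13 above, beside 22.2% and 20.9% of all genes. The alpha cluster summed to 53.7 and 56.3 FPKM in mutant libraries against 51.6 and 55.6 FPKM in wild-type libraries. The beta cluster summed to 72.7 and 77.5 against 71.2 and 73.6 FPKM, and the gamma cluster to 147 and 149 against 150 and 146 FPKM. The differences of the mean log2 sums were 0.04, 0.05 and 0.00, no larger than the spread between libraries. With small RNA genes left out and libraries rescaled, the beta difference was 0.074 beside a spread of 0.067. The alpha and gamma differences stayed under their spreads. Reads of shared exons can be split among isoforms by the quantification, so values of single alpha and gamma genes are less certain than the sums.

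Pcdhgc3 and Pcdhgc4, of the C type, led the gamma cluster, while the third C-type gene, Pcdhgc5, had 2.12 and 1.996 FPKM in mutant libraries against 2.05 and 1.94 FPKM in wild-type libraries. Pcdhgc3 had 30.1 and 31.5 FPKM in mutant libraries against 30.1 and 27.3 FPKM in wild-type libraries. Pcdhgc4, an isoform that neurons need to survive, had 27.7 and 23.5 against 28.3 and 28.8 FPKM, with the lower value again in the second mutant library and a log2 change of -0.16 (SE 0.08, adjusted p = 0.689). Together with Pcdhgc5 these made up 40.7% and 38.2% of the gamma sum in mutant libraries against 40.3% and 39.7% in wild-type libraries. The 12 Pcdhga genes lay between 1.24 and 6.67 FPKM across all 4 libraries, and Pcdhgb6 had 11.1 and 12.4 against 11.6 and 11.2 FPKM.

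In the alpha cluster Pcdhac2, a C-type isoform, led with 11.1 and 12.1 FPKM in mutant libraries against 10.3 and 10.4 FPKM in wild-type libraries. The groups did not overlap, with a log2 change of 0.15 (SE 0.07, unadjusted p = 0.0598). Pcdha6 had 2.48 and 2.80 FPKM in mutant libraries against 1.61 and 2.16 FPKM in wild-type libraries, with a log2 change of 0.34 (SE 0.12, unadjusted p = 0.0328, adjusted p = 0.689). The symbol Pcdha6-g, which the tables list apart, lay on the other side at 1.15 and 1.31 against 1.76 and 1.38 FPKM. Without the second mutant library the Pcdha6 change was 0.28 with an unadjusted p of 0.132, and without the first wild-type library 0.20.

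**Figure D3:**
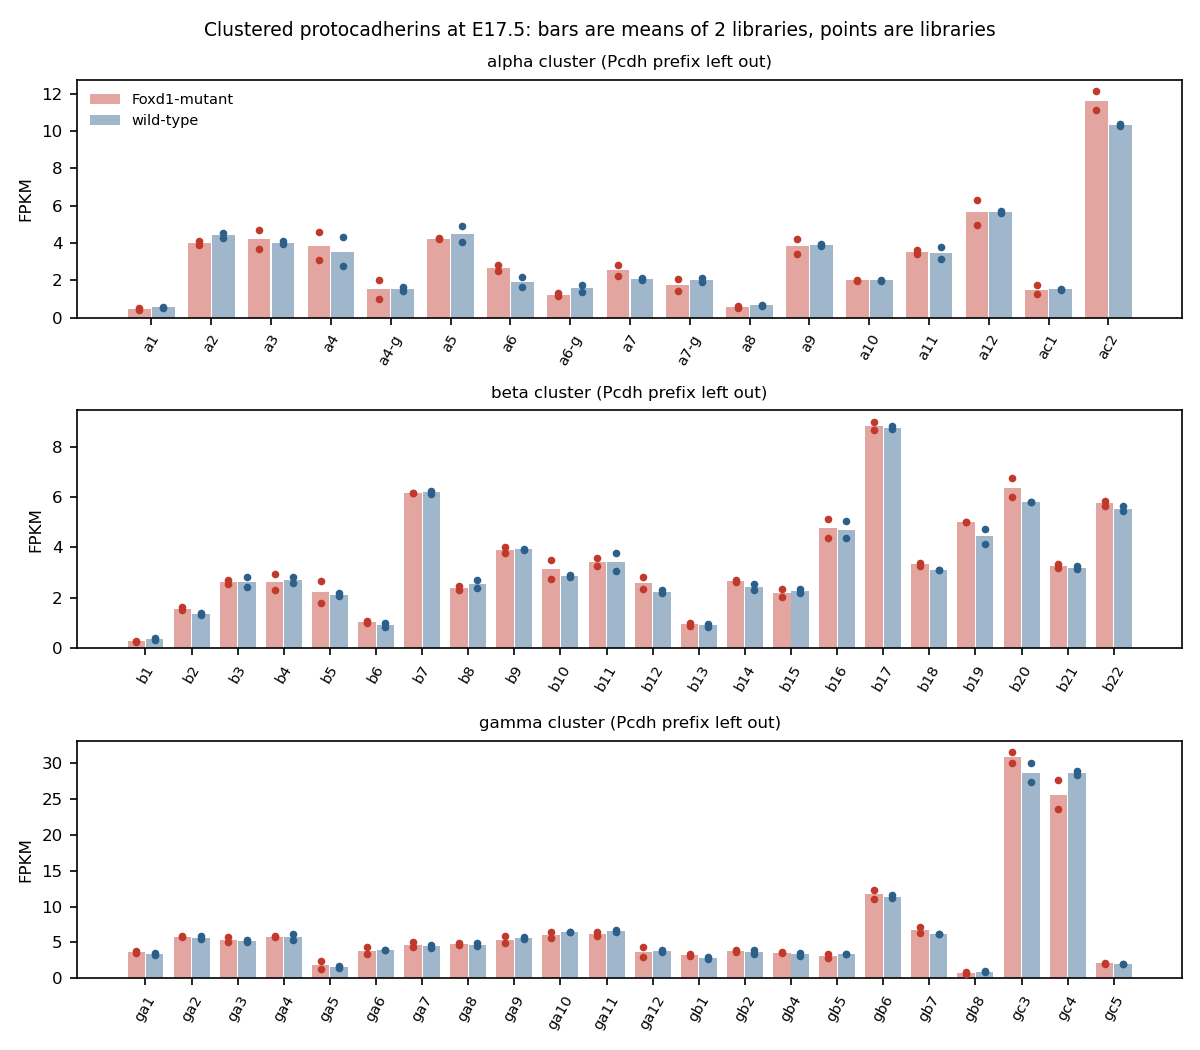
FPKM of the 61 clustered protocadherin symbols at E17.5 in the alpha, beta and gamma clusters, with bars at the mean of 2 libraries, points for libraries and Foxd1-mutant left of wild-type. The same isoforms lead in both genotypes: Pcdhac2, Pcdhb17, and Pcdhgc3 with Pcdhgc4.

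The beta protocadherins have no shared constant exon, and all 22 could be followed separately at every stage. Pcdhb17 led at all stages. Its FPKM was 3.17 in the mutant against 4.21 in the wild-type library at E12.0, 4.07 against 6.18 at E12.5. At E17.5 it was 8.69 and 9.01 in mutant libraries against 8.83 and 8.73 in wild-type libraries. Mutant values were below wild-type at both early stages, with an E12 log2 change of -0.41 (SE 0.15, unadjusted p = 0.0452, adjusted p = 0.976), and the change at E17.5 was 0.01. Pcdhb22 had 1.69 against 2.24 FPKM at E12.0 and 2.94 against 3.13 FPKM at E12.5, and Pcdhb7 had 1.58 against 1.53 and 2.66 against 3.09 FPKM. The beta sum was 20.7 against 22.2 FPKM at E12.0 and 29.9 against 33.3 FPKM at E12.5. The joined alpha and gamma row had 75.2 against 85.7 FPKM at E12.0 and 118 against 115 FPKM at E12.5, with a log2 change of -0.07 (SE 0.14).

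At E17.5, 7 of 19 tested beta genes lay above the wild-type in both mutant libraries and 0 below, beside 20.9% and 22.2% of all genes, and 0 were at an unadjusted p under 0.05 (limma). Their changes ran from -0.07 to 0.14. The order of the 22 beta genes was alike at both ages, with Spearman's rho between the mean levels at E12 and at E17.5 of 0.832 in mutant tissue and 0.884 in wild-type tissue, as a description over genes measured in the same libraries.

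Most members were listed at a higher level at E17.5 than at E12 in both genotypes. The tables of the 2 ages were made separately, so this is a description with no test. Of 33 members with a mean of at least 1 FPKM at E12, 25 were at least 2-fold higher at E17.5 in mutant tissue, beside 17.8% of all genes, and 24 in wild-type tissue, beside 16.7%. None was at least 2-fold lower, beside 7.98% and 8.74%. The median ratio of the members was 2.80 in mutant and 2.69 in wild-type tissue, where that of all genes was 1.15 in both. Neuron markers also summed higher at E17.5, as given above, and small RNA genes took 9.87% to 14.7% of FPKM at E17.5 against 14.7% to 24.5% at E12, and their part in the ratios was not tested.

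Cdh13 had the highest ratio, 18.98 in mutant and 18.7 in wild-type tissue. It was listed at 1.70 and 4.29 FPKM in the mutant libraries of E12.0 and E12.5 against 1.11 and 5.27 FPKM in the wild-type libraries, far below its E17.5 values. Pcdh11x (9.55 and 7.88), Pcdh17 (8.04 and 7.19), Pcdh9 (5.78 and 4.88) and Cdh10 (5.05 and 4.26) followed in order of the mutant ratio, with the mutant value and then the wild-type value for each. In wild-type tissue Cdh7, at 4.88, stood above Cdh10. At the other end, Cdh24 (0.713 and 0.749), Cdh22 (1.02 and 1.13), Pcdh8 (1.08 and 1.12) and Cdh2 (1.12 and 0.977) were listed at about the same or a lower level later. Cdh2 was already at 73.5 FPKM in the mutant and 82.4 FPKM in the wild-type library at E12.0 and at 102 and 108 FPKM at E12.5. Cdh4 stood in between, with 15.1 against 16.4 FPKM at E12.0 and 16.1 against 16.4 FPKM at E12.5 and a ratio of 1.92 in mutant and 2.14 in wild-type tissue.

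Of the 23 members in both tables under a mean of 1 FPKM at E12, 14 reached 1 FPKM at E17.5, and for 22 all E17.5 values were above all E12 values. The 9 that stayed below were Cdh3, Cdh15, Cdh16, Cdh17, Cdh19, Cdh26, Pcdhb1, Pcdhb6 and Pcdhb13.

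**Figure D4:**
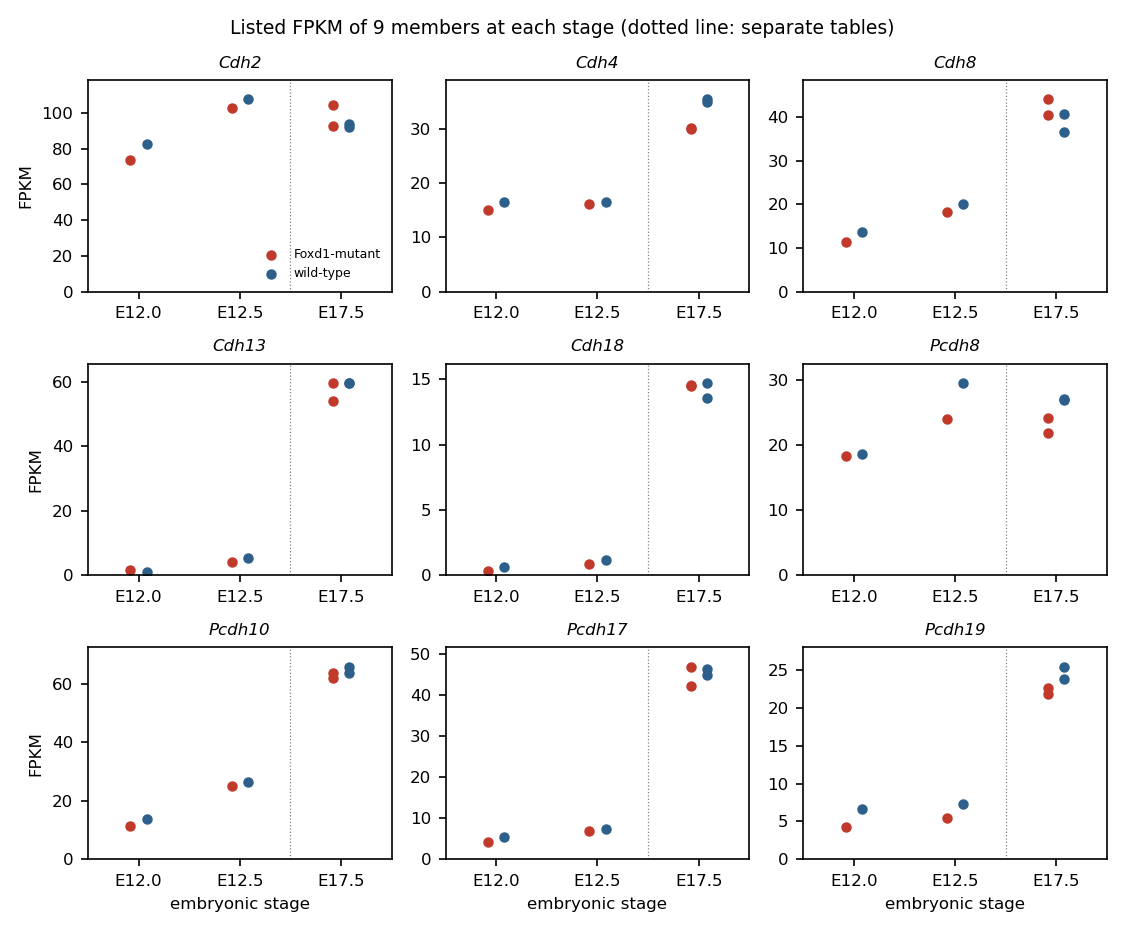
Listed FPKM of 9 members by embryonic stage, with a point per library, Foxd1-mutant left of wild-type at each stage and a dotted line between the separately made tables. Cdh13 and Cdh18 are near 0 at E12 and at 54.1 FPKM or more and 13.6 FPKM or more at E17.5, while Cdh2 and Pcdh8 are at like levels throughout.

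The E17.5 tables list transcripts, and 12 member genes had more than 1. Their rows were tested singly, an analysis added after the data were seen. Of 16564 transcript rows 0 passed the adjusted threshold (background 0%), and of 20 member rows tested 2 were at an unadjusted p under 0.05, beside a background of 5.8%. In Pcdh8 the difference lay in the longer transcript of 4000 nt, with 10.6 and 7.49 FPKM in mutant libraries against 13.6 and 12.8 FPKM in wild-type libraries. The shorter transcript of 3704 nt had 13.5 and 14.3 against 13.3 and 14.2 FPKM. The log2 changes were -0.52 (SE 0.16, unadjusted p = 0.0232, adjusted p = 0.748) and 0.01 (SE 0.07). The change of the longer one was -0.74 without the first mutant library and -0.30 without the second.

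Cdh23 was split unlike in the 2 genotypes. Its first transcript had 1.69 and 1.87 FPKM in mutant libraries against 3.53 and 3.79 FPKM in wild-type libraries, and its second had 1.54 and 1.75 against 0.0357 and 0.0766 FPKM. The log2 change of the first was -0.75 (SE 0.11, unadjusted p = 0.00115, adjusted p = 0.748), while the change of the gene total was -0.09. The first row held 52.5% and 51.5% of the Cdh23 total in mutant libraries against 99.0% and 98.0% in wild-type libraries. Both rows match the same GENCODE transcript, so the values of the single rows are uncertain, and how reads were divided between them was not tested. Pcdh10 had 31.4 and 33.4 FPKM in its first transcript in mutant libraries against 30.6 and 32.2 FPKM in wild-type libraries, and 22.4 and 17.8 against 23.8 and 24.1 FPKM in its second. For Cdh8 these were 15.7 and 16.5 against 15.8 and 15.7 FPKM, and 16.4 and 15.7 against 12.9 and 15.1 FPKM.

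**Figure D5:**
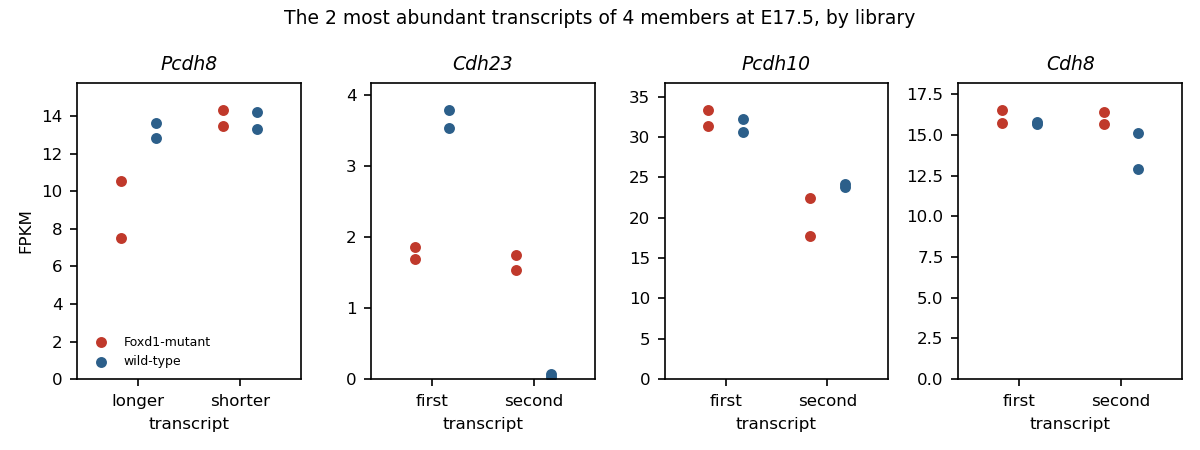
FPKM of the 2 most abundant transcripts of Pcdh8, Cdh23, Pcdh10 and Cdh8 at E17.5, with a point per library and Foxd1-mutant left of wild-type. In Pcdh8 the longer transcript alone is apart, at 10.6 and 7.49 against 13.6 and 12.8 FPKM, and in Cdh23 the mutant libraries list both transcripts at about equal levels.

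Genes that work with cadherins were examined as 4 lists. None of their members passed the adjusted threshold at E17.5 or E12 (limma). The catenins, which join classical cadherins to actin, summed to 608 and 612 FPKM in mutant libraries against 617 and 615 FPKM in wild-type libraries at E17.5, and 0 of 9 tested were at an unadjusted p under 0.05. Ctnnb1 (beta-catenin), the largest of them, had 318 and 324 against 327 and 326 FPKM. The list of the wider cadherin superfamily also holds Fjx1, which is not itself a cadherin. Of its 13 tested genes 2 were at that level, both lower, beside 5.7% of all genes in either direction and 3.52% lower. Clstn3, a calsyntenin of synapses, had 75.9 and 64.9 FPKM in mutant libraries against 79.2 and 85.7 FPKM in wild-type libraries, and Fjx1, the counterpart of fly four-jointed, a kinase that modifies Fat and Dachsous cadherins, had 29.9 and 28.9 against 33.1 and 31.7 FPKM.

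At E12, 1 of 11 tested genes of the superfamily list was at an unadjusted p under 0.05, beside 1.41% of all genes. This was Fat4, a large cadherin of planar polarity, with 6.21 FPKM in the mutant against 8.92 FPKM in the wild-type library at E12.0 and 6.60 against 8.21 FPKM at E12.5. Regulators of clustered promoter choice, which include Ctcf and cohesin, had 10 of 11 tested genes above 0 at E17.5 with a median log2 change of 0.10, where 51% of all genes were above 0. Their sum was 345 and 377 FPKM in mutant libraries against 338 and 339 FPKM in wild-type libraries, so most of the difference lay in the second mutant library, the one high in telencephalon markers. Of these 1, the cohesin loader Nipbl, was at an unadjusted p under 0.05, with 14.99 and 16.9 FPKM in mutant libraries against 13.6 and 14.2 FPKM in wild-type libraries. Intracellular partners of protocadherins, such as the actin regulator Nckap1 and the kinase Fyn, had 0 of 12 at that level. At E17.5, 10 of these 12 were also above 0, with a median of 0.05, so the lean above 0 was not particular to the regulators.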

How the data were processed

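RNA of pooled hypothalamic tissue was sequenced paired-end for 100 cycles on a HiSeq 2500, per the labels' protocols. The submitters' processing notes name mouse build mm9, TopHat and Cufflinks, with no versions. The deposited tables hold FPKM values made by the authors, a gene table at E12 and a transcript table at E17.5, and no counts, so no count model was used. Rows of a symbol were summed.

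Values were taken as log2 of FPKM + 1. The genes of a fit whose average reached 1 FPKM entered limma 3.58.1 (R 4.3.3) with a variance trend and two-sided tests, with Benjamini-Hochberg adjustment over all genes and a threshold of 0.05. Fits used 4 libraries at E17.5, 4 at E12 with stage as a block, and all 8, again blocked by stage, for the mean and for the difference between ages. The procedure was tested on simulated data. The growth protocol names E12.5 and E17.5 but not E12.0, and stages were taken from the sample characteristics.

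Depth was estimated from single transcripts over 2500 nt, with 170 nt taken off. Low values lay within 0.1 of a whole number of fragments for 79.1% to 80.9% of them in E17.5 libraries and 30.9% to 40.8% in E12 libraries. Depth limits low genes, and no interval was drawn from it.

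Named genes were the 4 most abundant of each group at each age and up to 2 per direction at an unadjusted p under 0.05. Pcdh1, Pcdh9, Pcdh11x, Cdh10 and other members were named beyond this rule, after their values were seen. Members and lists were chosen with earlier results of these data known. Alternatives changed the pseudocount, filter, scaling, trend, row joining, blocks and libraries. Promoter windows came from RefSeq, and transcript lengths from GENCODE vM21. Python 3.11.15, pandas 2.3.3 and matplotlib 3.10.9 were also used.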

Additional observations from a re-analysis of the deposited data

How the results depend on the processing

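The count of members past the adjusted threshold was 0 in all 4 comparisons under all 57 alternatives run. Libraries were left out in 3 of the comparisons (not E12 alone). None of 179 recomputed log2 changes reversed, though that of Pcdh8 at E17.5 fell as low as -0.0018 in size. These 179 covered only members at an unadjusted p under 0.05 in the comparison, and the cluster sums. Those members were picked by p in these same data, so a kept sign says little, and other named members were not recomputed. At an unadjusted p under 0.05 the E17.5 count of 3 became 15 without the first mutant library (lowest adjusted p 0.0597), 3 without the second, 0 without the first wild-type library and 2 without the second, with the lone library assumed to vary like the others. The cause was not tested. Leaving out a library gave changes from -0.23 to -0.21 for Cdh4, -0.30 to -0.16 for Pcdh8 and 0.20 to 0.48 for Pcdha6. A pseudocount of 5 gave 0.15 for Pcdha6 at E17.5, and -0.28 for Pcdh19 and -0.24 for Pcdhb17 at E12. At E12 the unadjusted count of 2 became 4 with the spread taken from all 8 libraries, which also tested 47 members in place of 34 (2 of the 4 being among the 34), 0 without the stage block, 1 with no filter, 0 with a filter at 5 FPKM and 1 with quantile normalization. Genes past the adjusted threshold at E12 numbered 78 without the stage block and 4 with it, and at E17.5 44 without the first mutant library, 10 without the second, and 4 and 1 without either wild-type library, beside 1. For the difference between ages the unadjusted count of 4 became 3 without the first E17.5 mutant library, 1 without the second, 1 without either E17.5 wild-type library, and 2 with a pseudocount of 5 or quantile normalization. Genes past the adjusted threshold there numbered 48 without both E12.0 libraries, beside 4. The gamma sum moved to 0.03 and the joined alpha and gamma sum to 0.03 on the log2 scale when small RNA genes were left out and libraries rescaled. With the replicate number as a block at E17.5, 0 members and 16 genes passed; deviations of same-numbered libraries correlated by 0.028 over 13235 genes and by 0.225 over the 83 members, with 2 pairs, so the numbers were not taken to pair samples. The tests of joined alpha and gamma genes and of single transcripts were chosen after seeing the data.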
